A study of Saccharomyces cerevisiae with 6 samples.

Results

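The 10 genes described here encode enzymes that make pyrimidine nucleotides and thymidylate: *URA1*, *URA2*, *URA3*, *URA4*, *URA5*, *URA6*, *URA7*, *CDC21*, *DUT1* and *DCD1*. They were chosen by name, and all 10 of them have a row among the 5297 genes of the deposited mRNA table. mRNA was sequenced from 3 *SPO11* and 3 *spo11-YF* cultures of diploid budding yeast in the SK1 background, sampled 4 h into meiosis. *SPO11* cells carry the functional gene and form meiotic DNA breaks, whereas *spo11-YF* cells carry a catalytic mutant, with phenylalanine in place of the active-site tyrosine, and form none. In both strains *TRP1* replaces *NDT80*, whose loss arrests cells before the exit from prophase, and *LEU2* replaces *PPH3*, which encodes the catalytic subunit of protein phosphatase 4. They also share a *LYS2* insertion at *ho* and a *lys2* allele. The *spo11-YF* allele is tagged with HA and marked with *URA3* on both parental chromosomes. Both strains are listed as HIS and URA, so *URA3* has more copies in *spo11-YF* cells. According to the paper, *SPO11* cells carry more copies of *LEU2* than *spo11-YF* cells. *TRP1* as a separate entry is listed only for the MATalpha parent of the *spo11-YF* strain. Each culture is a population arrested by the loss of *NDT80*, not a wild-type meiosis.

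The value used for each gene is the authors' mean of normalized counts over all 6 libraries, so it describes cells of both strains together. Values for single libraries were not used here, so neither the depth of a library nor the spread between cultures could be computed, and no value below carries an error. The remaining numeric columns hold the authors' own comparison of *SPO11* with *spo11-YF* and were not used. Therefore no difference between the strains is described and none was tested. The means of all listed genes add up to 2759217 normalized counts, with a median of 218 normalized counts per gene. Longer mRNAs yield more fragments, so levels were compared between genes as normalized counts per kb of coding length. The coding lengths are those of the S288C reference assembly R64, which gave a length for 5276 of the 5297 genes. The percentile of a gene is the percentage of the other genes with a lower level per kb.

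The label of the samples, meiosis, was checked against marker genes. The 12 listed genes of meiotic prophase, such as *HOP1*, *DMC1* and *REC8*, lay between percentiles 79.7 and 99.7 with a median of 97.8. By contrast, the 8 listed genes of mid-meiosis and spore formation, which need Ndt80, had a median percentile of 18.6 and reached at most percentile 73.4. Of 6 genes specific to haploid mating cells, 4 had a row and lay between percentiles 0.645 and 10.5. The 6 listed genes of DNA replication, which act in the preceding S phase, had a median percentile of 61.9, from *CDC9* at 17.4 to *RFA1* at 91.5. Levels were therefore high for prophase markers and low for most markers of later or mating cells.

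Yeast cells make UMP, the parent of all pyrimidine nucleotides, from glutamine, bicarbonate and aspartate in a linear series of enzymatic steps. UMP is phosphorylated to UDP and UTP, and UTP is aminated to CTP. For DNA, ribonucleotide reductase makes the deoxy forms, from which dUMP arises, and thymidylate synthase methylates dUMP to dTMP. In vegetative cells the end product UTP inhibits the first enzyme of the route, and the transcription factor Ppr1 activates several *URA* genes, among them *URA1*, *URA3* and *URA4*. Thymidylate synthesis serves mainly DNA replication, which precedes break formation in meiosis, and the small amount of DNA made during repair.

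The 10 genes were mostly expressed at low to middling levels. Their median level was 109 normalized counts per kb, against 165 normalized counts per kb for all listed genes, and their median percentile was 32.4. Of the 10 genes, 7 lay below the median gene and 3 above it, with 1 gene above the upper quartile of all genes (339 normalized counts per kb) and 3 below the lower quartile (89.0). Together they held 2109 normalized counts, which is 0.0764% of the summed means. Levels per kb spanned 10.6-fold within the group, from *DCD1* at 32.5 to *URA5* at 346 normalized counts per kb.

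**Figure D1:**
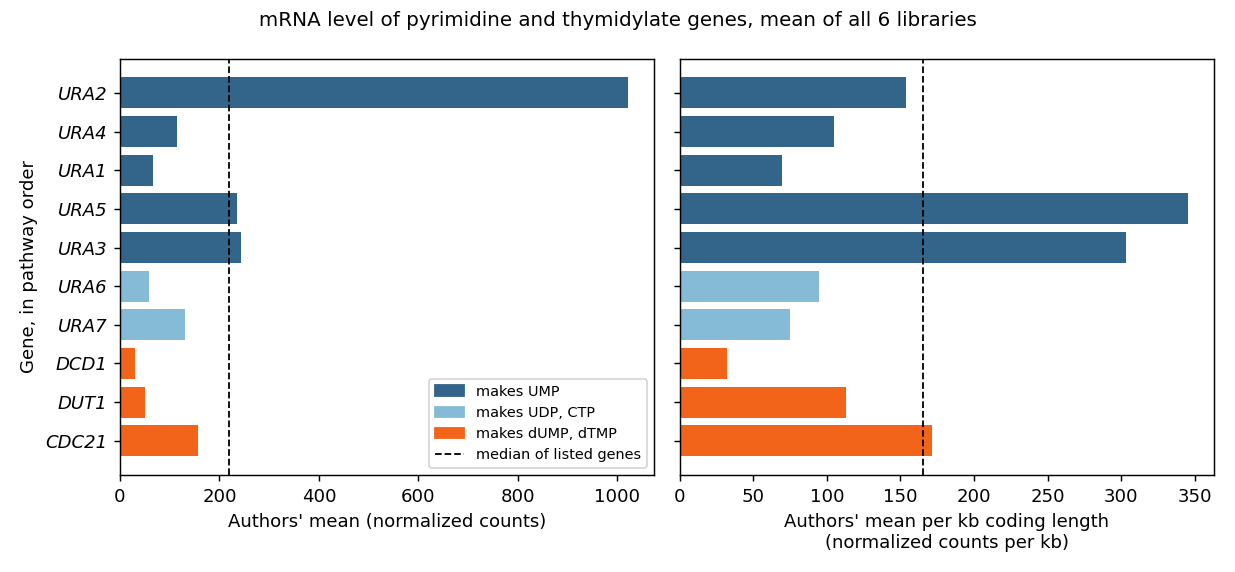
Authors' mean over all 6 libraries for each gene, in normalized counts (left) and in normalized counts per kb of coding length (right), with genes in pathway order and coloured by product; the dashed line is the median of all listed genes. *URA2* is the highest bar on the left at 1022 normalized counts, whereas *URA5* at 346 and *URA3* at 304 normalized counts per kb are the highest on the right.

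The genes for the enzymes that lead to UMP differed in level. *URA2* (YJL130C) encodes the large fused protein with carbamoyl phosphate synthetase and aspartate transcarbamylase activities, which starts the route. It had the highest mean of the group, 1022 normalized counts, which is 48.5% of the sum over the 10 genes. Because its coding sequence is 6645 bases long, against a median of 1284 bases for all genes, its level was 154 normalized counts per kb, at percentile 47.0. Per kb, *URA2* therefore stood close to the median gene.

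*URA4* (YLR420W) encodes dihydroorotase and had a mean of 115 normalized counts, or 105 per kb, at percentile 30.8. *URA1* (YKL216W) encodes dihydroorotate dehydrogenase, which makes orotate, and had a mean of 65.5 normalized counts, or 69.3 per kb, at percentile 17.3. From *URA2* over *URA4* to *URA1*, the mRNA level per kb became lower at each step of the route, with *URA2* at 2.22 times the level of *URA1*.

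The genes for the last enzymes on the way to UMP had the highest levels per kb of the group, though not the highest means. *URA5* (YML106W), the main orotate phosphoribosyltransferase, had a mean of 235 normalized counts, or 346 per kb, at percentile 75.7. This is 4.98 times the level per kb of *URA1*, the preceding step. *URA3* (YEL021W), which encodes orotidine monophosphate decarboxylase, had a mean of 244 normalized counts, or 304 per kb, at percentile 71.6. Its value averages a strain with marker copies of the gene and a strain without them, so the level from the native locus alone cannot be told apart. Leaving out *URA3*, which lies above the median of the group, could only lower that median or leave it unchanged. The median of the remaining genes lay at percentile 30.8.

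Beyond UMP, both genes of the group were low. *URA6* (YKL024C), the UMP kinase, had a mean of 58.3 normalized counts, or 94.9 per kb, at percentile 27.1. *URA7* (YBL039C) encodes the major CTP synthase of vegetative cells. Its mean of 131 normalized counts corresponded to 75.2 per kb, at percentile 19.7. Per kb, *URA5* was thus 3.64 times as high as *URA6*, the kinase that acts on the UMP it leads to.

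The thymidylate genes ranged from a middling level to the lowest of the group. *CDC21* (YOR074C) encodes thymidylate synthase and had a mean of 157 normalized counts, or 172 per kb, at percentile 51.4, which is close to the median gene. *DUT1* (YBR252W) encodes the dUTPase that yields dUMP and keeps uracil out of DNA. It had a mean of 50.2 normalized counts over a coding length of only 444 bases, the shortest of the group, which is 113 per kb at percentile 34.0. *DCD1* (YHR144C) encodes dCMP deaminase, the other source of dUMP. With a mean of 30.5 normalized counts, or 32.5 per kb, it was the lowest gene of the group and lay at percentile 3.87 of all genes. Per kb, the genes of both enzymes that yield dUMP therefore had lower values than *CDC21*, whose product uses it. *CDC21* was 1.52 times as high per kb as *DUT1* and 5.29 times as high as *DCD1*. The value per kb makes no allowance for fragment length, which can lower it for a coding sequence as short as that of *DUT1*. Whether the mRNA of *DUT1* was less abundant than that of *CDC21* is therefore not settled by the 1.52-fold difference and was not tested.

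**Figure D2:**
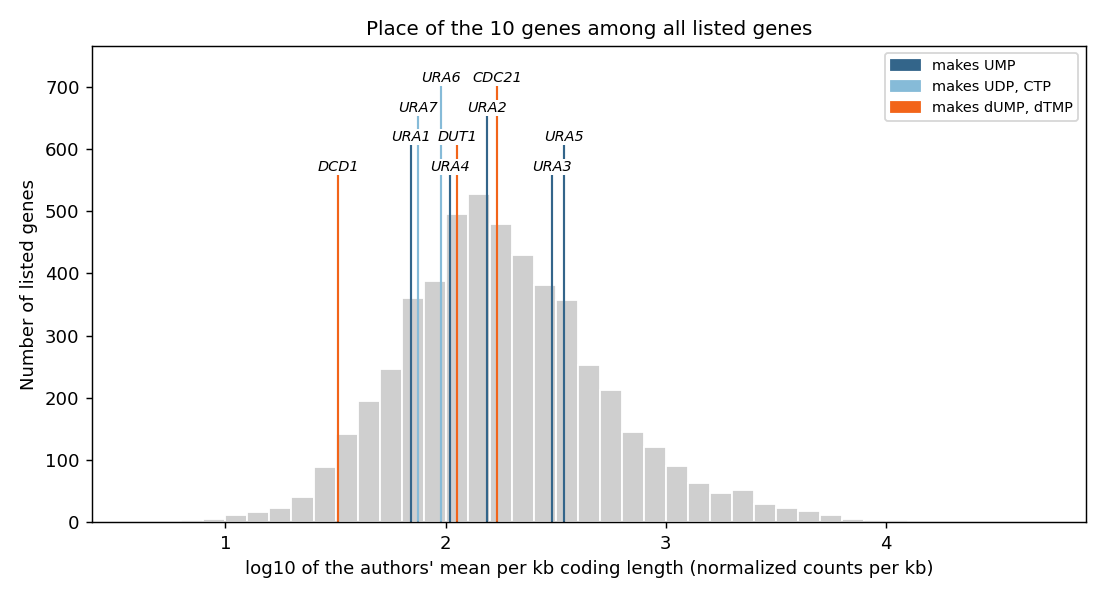
Number of listed genes (y axis) by log10 of the authors' mean per kb of coding length in normalized counts per kb (x axis, bins of equal width), with a vertical line for each of the 10 genes, coloured by product. *DCD1* stands alone at the low end of the group at percentile 3.87, most genes lie left of the peak or near it, and *URA3* and *URA5* lie to its right at percentiles 71.6 and 75.7.

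In order of level per kb, *URA5* was followed by *URA3*, *CDC21*, *URA2*, *DUT1*, *URA4*, *URA6*, *URA7*, *URA1* and *DCD1*. Of the 9 steps between neighbours in this order, 5 were smaller than 1.2-fold. As the spread between cultures is not known here, the order was not resolved for these neighbours, and the wider steps were not tested either. The widest gaps were the 2.13-fold step from *URA1* down to *DCD1* and the 1.77-fold step from *URA3* down to *CDC21*.

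Features of the coding sequences that could bear on read counting were also examined. None of the 10 genes has an intron in R64, and none overlaps another annotated gene there. Their GC content ranged from 38.2% in *DCD1* to 47.3% in *DUT1*, with a median of 40.1% against 39.7% for all genes, and their coding length ranged from 444 bases in *DUT1* to 6645 bases in *URA2*. Both *URA5* and *URA7* have a paralog, *URA10* and *URA8*. *URA5* and *URA10* share 70.2% of aligned coding bases, and *URA7* and *URA8* share 72.5%. However, no stretch of 31 bases of any of the 10 coding sequences occurs in another coding sequence of R64, so reads of these paralogs are largely separable in that genome. The SK1 sequences themselves were not used here.

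The paralogs differed widely in level. *URA8*, the second CTP synthase gene, had a mean of 682 normalized counts, or 393 per kb, at percentile 79.0. It was 5.22 times as high per kb as *URA7*, although *URA7* provides most of the CTP synthase activity in vegetative cells. For orotate phosphoribosyltransferase, the gene known for most of the enzyme activity in vegetative cells also had the higher mRNA level here. Activity and mRNA level are different measures. *URA5*, the major gene, was 5.71 times as high per kb as *URA10*, which had a mean of 41.4 normalized counts, or 60.5 per kb, at percentile 13.3. No test of either difference was possible from 1 mean per gene.

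Enzymes next to the group in the pathway were also set beside it. *YNK1*, the nucleoside diphosphate kinase that makes UTP and other triphosphates, had a level of 969 normalized counts per kb at percentile 93.1, which is 10.2 times that of *URA6*, the kinase before it. *FUR1*, the uracil phosphoribosyltransferase that salvages uracil to UMP, had 239 normalized counts per kb at percentile 63.7, between *CDC21* and *URA3*. *CDC8*, the thymidylate kinase that phosphorylates the product of *CDC21*, had 190 normalized counts per kb at percentile 55.4. The ratio of *CDC8* to *CDC21* was only 1.10. *DFR1*, the dihydrofolate reductase that regenerates the folate used by *CDC21*, had 48.3 normalized counts per kb at percentile 9.33, and *CDC21* was 3.56 times as high. In the thymidylate branch, *CDC21* and *CDC8* therefore stood near the median gene, whereas *DCD1* and *DFR1* were low, at percentiles 3.87 and 9.33. *DUT1* lay between them at percentile 34.0.

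All 16 other pyrimidine genes considered (among them salvage enzymes, permeases, kinases, paralogs and the regulator Ppr1) had a row. Their median percentile was 42.0, which falls in a gap between *SHM2* at 28.6 and *CDC8* at 55.4, with 5 genes above the upper quartile of all genes and 7 below the lower quartile. The lowest was *FUR4*, the uracil permease, at 27.4 normalized counts per kb, and the highest was *CPA1*, which encodes a subunit of the carbamoyl phosphate synthetase of arginine synthesis, at 3108 normalized counts per kb.

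The purine route and ribonucleotide reductase, which also feed DNA precursors, had higher median places than the 10 genes. The 11 listed purine genes had a median percentile of 57.7 and ranged from *ADE17* at 6.92 to *ADE16* at 88.2. The 4 subunits of ribonucleotide reductase had a median percentile of 83.1, with *RNR3* lowest at 7.68 and *RNR4* highest at 88.7. These places, too, come from means over both strains, so a gene whose level differs between the strains has its place set by their average. The ranges of the 3 groups overlap, and the differences between them were not tested.

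**Figure D3:**
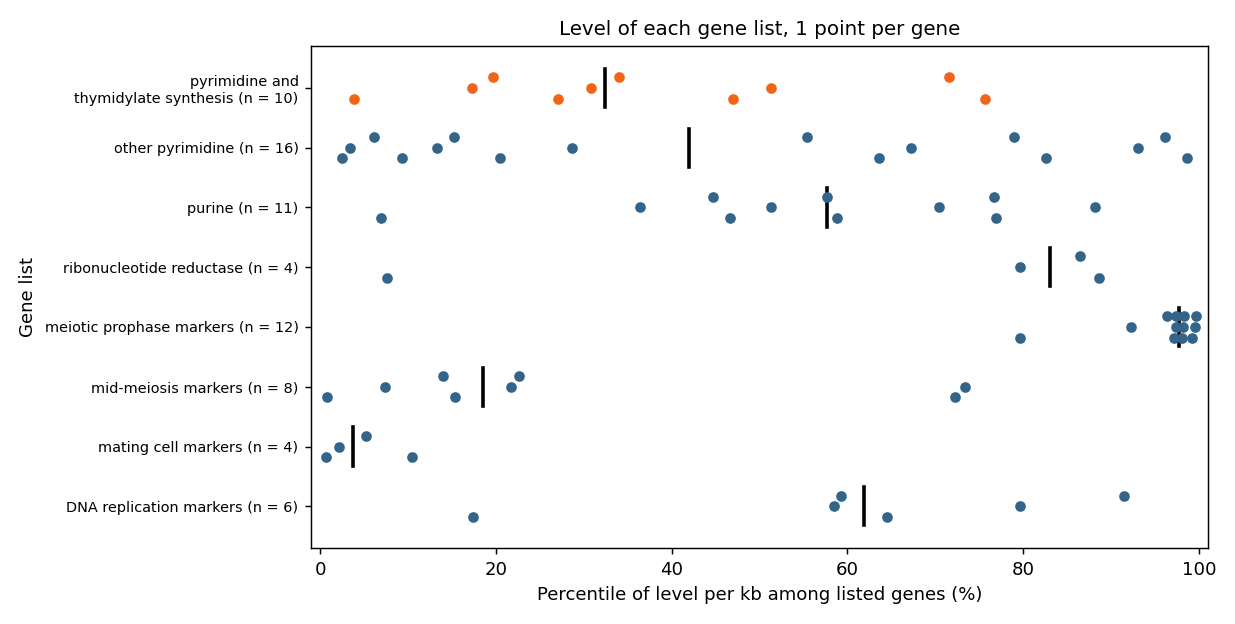
Percentile of level per kb among listed genes (x axis, %) for each gene list (y axis), with 1 point per gene, a black bar at the median and vertical offsets within a list for legibility only. The 10 pyrimidine and thymidylate genes (orange) have a median of 32.4, below those of the other pyrimidine (42.0), purine (57.7) and ribonucleotide reductase (83.1) genes, and meiotic prophase markers lie at the high end.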

How the data were processed

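mRNA from 3 *SPO11* and 3 *spo11-YF* cultures was sequenced as strand-specific, poly(A)-selected libraries. Per the methods, the authors ran the nf-core RNA-Seq pipeline against the SK1 genome, used its gene counts from Salmon, applied ComBat-Seq for batches and fitted DESeq2. STAR and Trim Galore are named in the submitters' processing notes, and versions are not given in the sources used here. The signal used is the authors' deposited mean of normalized counts over all libraries. The 5 columns of the authors' comparison (fold change, standard error, test statistic, p-value and adjusted p-value) were not used, so no test was made. An adjustment for batches changes the counts and hence the means. The lowest listed mean was 8.21 normalized counts, so that genes below it have no value here.

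Each mean was divided by the coding length in S288C R64, taken by systematic name; 21 genes had no match. Differences in gene length between SK1 and S288C, and in coverage along the mRNA, remain in these levels. No allowance was made for fragment length, which bears most on short coding sequences such as that of *DUT1*. Shared stretches of 31 bases and paralog identity (global alignment) came from R64 coding sequences; no coordinates or sequences are given. The text names all 10 genes, the paralogs and pathway neighbours of members, and the highest and lowest gene of the other pyrimidine, purine and ribonucleotide reductase lists; the other genes of these lists and the markers enter mainly by counts, medians and ranges. From the other pyrimidine list, 1 gene was left out and is not reported here. The members and lists were chosen with earlier results of these data known. The ranking step of the percentile was tested on simulated levels of known order, which checks neither the lengths nor the matching of genes. Calculations used biopython 1.88, pandas 2.3.3, numpy 2.4.6 and scipy 1.17.1 under Python 3.11.15, and plots used matplotlib 3.10.9. Alternatives were no length correction, other sources of length, a minimum mean of 10 normalized counts, and leaving out *URA3* or the 50 genes of highest mean.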

Additional observations from a re-analysis of the deposited data

How the results depend on the processing

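The median percentile of the 10 genes, 32.4, was 30.7 without length correction and 30.8 without *URA3*. Both values lay below its 95% binomial interval over genes (31.2 to 33.7). That interval treats the percentile as a share of the listed genes, so it holds neither the spread among the 10 genes nor that between cultures. With lengths from the gene span the median percentile was 33.0. It was 32.3 when only genes with a mean of 10 or more normalized counts were kept. As the lowest listed mean was 8.21, that filter could leave out only genes with means from 8.21 to 10. Lengths from the protein were derived from the coding sequence and equal the coding length, so they gave the same value by construction. Single genes depended on the length correction: without it, all 10 percentiles also moved outside such intervals, which hold no measurement error. The largest move was that of *URA2*, from 47.0 to 89.3. The fold between the highest and the lowest of the 10 genes was 10.6 per kb and 33.5 without length correction, where *URA2* is the highest gene in place of *URA5*. The share of the summed means was 0.0764%, and 0.0955% without the 50 genes of highest mean.

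No paired analysis was possible because the values used are 1 mean per gene over all libraries. For the same reason, leaving out each replicate and the tests planned for counts per library were not run, and the precision of each level is unknown. The lowest means, such as that of *DCD1* with 30.5 normalized counts, rest on the fewest reads.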
